A study of Mus musculus with 4 samples.

Results

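Open chromatin was mapped with ATAC-seq in myeloid-derived suppressor cells (MDSCs) of mice with an intact Sphk2 gene (WT) and of Sphk2 knockout (KO) mice. The regions described here are those at the end of a protein-coding gene that were listed as a peak for each WT library but for no Sphk2 KO library. Peaks of the 4 libraries on autosomes were merged wherever they overlapped by at least 1 bp, and a region was kept when the mean of its peak summits lay within 1 kb of the start or the far end of a gene. The rule selected 275 regions, next to 275 different genes, of 44742 autosomal regions in all. These regions were selected on the peak calls of all 4 libraries, so their pattern across the genotypes is a description and was not tested.

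All mice had received EL4 lymphoma cells, a T cell line of mouse origin, and Gr1+CD11b+ cells were sorted from the ascites on day 14. Each library was made from 20000 sorted cells with 40% of the recommended amount of Tn5, the transposase that cuts open chromatin. There were 2 WT and 2 Sphk2 KO libraries, labelled as biological replicates but not tied to single animals or pools. The gate takes in both granulocytic and monocytic MDSCs, so the libraries are mixtures, and fewer cells of a type cannot be told apart from less open chromatin per cell.

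Promoters are held open by transcription factors and are the most common place of ATAC-seq peaks near genes. Interferons act on myeloid cells through STAT and IRF factors, which bind the interferon-stimulated response element (ISRE) in the promoters of antiviral genes and the GAS element in others. Sphk2 makes sphingosine 1-phosphate, part of it in the nucleus. MDSCs are immature myeloid cells that expand in tumour-bearing hosts and dampen T cell responses.

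The RefSeq promoter table (build GRCm38.p6, 250 bases before to 50 bases after each gene start) held a promoter overlapping 151 of the 275 regions. An ISRE, searched as GAAANNGAAA on both strands, stood in 15 of these 151 promoters. The match lay inside the WT-only region itself at 12 of them. These include Itpka, Eps8l1 and Aoah, which are not printed below, and Itpka and Eps8l1 are in none of the immune groups. The lines that follow give, 5′ to 3′ on the gene's strand, the stretches around the matches at 9 of these 12 genes. They show the element that the interferon genes printed here had in common with Cxcl10, Ncf1 and Slamf8. Not all interferon genes among the regions had a promoter to search. Capitals mark the match, which reads as its reverse complement where the element lies on the opposite strand. Ifit3 held 2 separate matches, given on a line each, and the longer capital stretch of Oas1a is 2 overlapping ones. Starts in the promoter table can lie inside the widest annotated span of a gene, and where they do, as for Ifit3, Oas1a, Ifi208, Ifi203 and Slamf8, at most 30 bases are shown.
Ifit3 (chr19:34583363-34583392, plus strand): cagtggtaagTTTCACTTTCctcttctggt
Ifit3 (chr19:34583397-34583426, plus strand): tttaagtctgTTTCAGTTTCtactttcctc
Oas3 (chr5:120777705-120777754, minus strand): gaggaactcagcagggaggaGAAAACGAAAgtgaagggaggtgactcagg
Oas1a (chr5:120907526-120907552, minus strand): ttctcggGAAATGGAAACTGAAAatct
Ifi208 (chr1:173673597-173673626, plus strand): cgtctctgagGAAATCGAAAgctatgaacc
Ifi206 (chr1:173491329-173491378, minus strand): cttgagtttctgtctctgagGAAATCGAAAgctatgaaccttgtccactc
Ifi203 (chr1:173942508-173942537, minus strand): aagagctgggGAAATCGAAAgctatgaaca
Cxcl10 (chr5:92349073-92349122, minus strand): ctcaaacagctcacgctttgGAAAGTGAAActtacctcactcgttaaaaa
Ncf1 (chr5:134229678-134229727, minus strand): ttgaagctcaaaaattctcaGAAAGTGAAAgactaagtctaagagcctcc
Slamf8 (chr1:172590569-172590593, minus strand): cccgggatgcTTTCGCTTTCaagac

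Ifi208, Ifi206 and Ifi203 belong to 1 gene family, and their matches share the same letters. The 300-base promoters of Ifi208 and Ifi206 were equal at 253 of 282 bases compared without gaps (89.7%), against 112 of 277 (40.4%) for Ifi208 and Ifi203. Reads of such close copies can be hard to place, and the sources used here do not say how reads with several matches were treated. The same doubt holds for regions of other clustered families, among them Gvin1, Gbp4, Oas1a, Pira2, Lilr4b, H2-Q2 and the zinc finger genes. Irf8 carried no ISRE in its promoter window but held 2 matches to the GAS element, searched as TTCNNNGAA, both inside its region and in capitals here.
Irf8 (chr8:120736167-120736233, plus strand): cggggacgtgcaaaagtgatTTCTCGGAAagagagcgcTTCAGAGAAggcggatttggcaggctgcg

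Among 8496 gene-end regions called in both WT libraries, the 275 WT-only regions made up 3.24% (95% Wilson interval 2.88% to 3.63%, counting error over regions only). That share depended on the libraries and lists used: it was 11.2% without Sphk2 KO replicate 2, 7.51% without WT replicate 1, 6.70% without WT replicate 2, and 1.94% with the same number of top peaks from every library. Away from gene ends the share was 15.3%, or 2154 of 14040 regions. The reverse pattern at gene ends, a peak for each Sphk2 KO library but for no WT library, was met at 21 of 7621 regions (0.276%). Gene ends were thus largely shared: 7517 of the 8496 regions (88.5%) had a peak in all 4 libraries. Chromosome by chromosome the WT-only share ran from 1.84% on chromosome 14 to 4.54% on chromosome 4, and was 2.90% on chromosome 7, which carries Sphk2.

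The libraries were not alike in depth, and depth moved with genotype. The WT lists held 31507 and 31843 peaks from 33859480 and 34443062 retained fragments, and the Sphk2 KO lists held 20759 and 27446 peaks from 25877428 and 27686223. Sphk2 KO replicate 1, the shortest list, had no peak at 944 of the 8496 gene-end regions (11.1%), whereas Sphk2 KO replicate 2 had none at 310 (3.65%). Only 35 regions were missing from replicate 2 alone, against 669 from replicate 1 alone. A region with no listed peak is one that did not pass the peak caller's threshold, which is not the same as closed chromatin. The part of depth in the WT-only calls was not tested.

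A check of the labels at Sphk2 itself was not decisive. A region over the annotated gene start was called in all 4 libraries, with scores (the −log10 q of the peak caller) of 61.6 and 73.5 in the WT libraries, then 28.0 and 70.5 in the Sphk2 KO libraries. A peak list cannot show a deletion that leaves this start in place. Another region, inside Sphk2 and near an end of Rpl18, was listed in Sphk2 KO alone, at 26.4 and 42.2.

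WT-only gene ends were weak peaks for the most part. The score is the −log10 q that MACS2 gave each peak, where a q of 0.05 is 1.3. Across the 275 regions the score in WT replicate 1 had a lowest value of 1.3, a median of 5.7 and a highest value of 40.9. In WT replicate 2 the lowest value was 1.76, the median 6.69 and the highest 63.9. Gene-end regions called in all 4 libraries had medians of 53.4 and 59.4 in the same WT lists, so the WT-only regions came from the lower part of each list. The WT-only peaks were also narrower, with median widths of 360 and 399 bp against 863 and 921 bp, and their median pileups (fragments stacked at the summit) were 20 and 22 against 84 and 99. Median fold enrichment over the local background was 4.14 and 4.05, compared with 9.81 and 9.29 for shared gene ends.

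The share of WT-only regions fell steeply as the peaks grew stronger. Where the lower of the 2 WT scores was under 5, 139 of 460 gene-end regions (30.2%) were WT-only. Between 5 and 10 the share was 104 of 688 (15.1%), between 10 and 20 it was 24 of 1130 (2.12%), and between 20 and 50 it was 8 of 2383 (0.336%). None of the 3835 gene-end regions with both scores at 50 or more was WT-only. In every one of these classes the share away from gene ends was larger, from 46.5% below 5 to 0.104% at 50 and above.

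**Figure D1:**
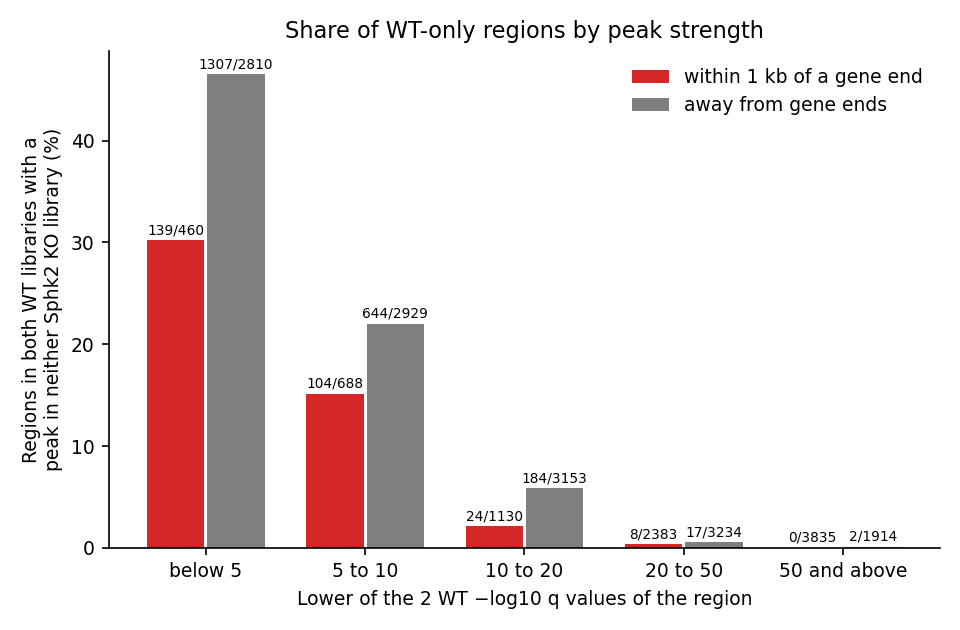
Percentage of regions called in both WT libraries that had no peak in either Sphk2 KO library (vertical axis), by the lower of the 2 WT −log10 q scores (horizontal axis); red bars are gene ends, grey bars all other autosomal regions, and the fraction above each bar gives the numbers. The red bars fall from 30.2% for scores below 5 to 0.336% for scores of 20 to 50, and each grey bar is higher than its red neighbour.

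The 2 WT libraries ranked the regions in a broadly similar way. Over the 275 regions the Pearson correlation of the log10 scores was 0.65 and Spearman's was 0.61, given as a description since both lists had to hold the peak and share its local background. WT replicate 2 had the higher score at 161 regions, and the scores were more than 2-fold apart at 50. Both scores reached 5 at 136 regions, 10 at 32 regions and 20 at 8 regions. Those 8 were Ifit3, Gvin1, Nrp1, Nudt13, Mapk12, Oas3, Parp10 and Ncf1.

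**Figure D2:**
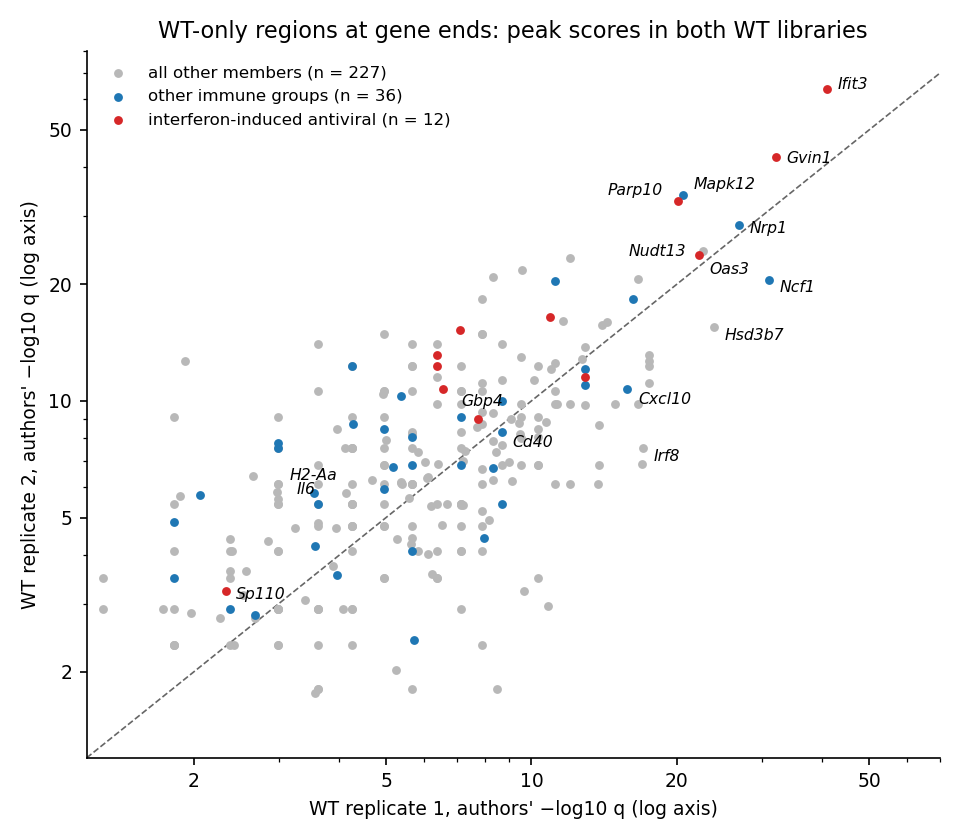
Each point is 1 of the 275 WT-only gene-end regions, placed by its −log10 q in WT replicate 1 (horizontal, log axis) and WT replicate 2 (vertical, log axis); red marks the 12 interferon-induced antiviral genes, blue 36 genes of other immune groups and grey the rest, and the dashed line marks equal scores. Ifit3 (40.9 and 63.9) and Gvin1 (32.1 and 42.6) stand at the upper right, while Sp110 (2.33 and 3.24) lies among the weak regions.

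The WT pileups were set beside those of the Sphk2 KO lists by scaling for depth. Each was multiplied by the retained fragments of the Sphk2 KO library divided by those of its own WT library. With the mean of the 2 WT libraries as divisor, this ratio was 0.758 for Sphk2 KO replicate 1 and 0.811 for replicate 2. Averaged over the 2 WT libraries, the scaled pileups had medians of 16.3 and 17.4. Gene-end peaks that were listed in the Sphk2 KO libraries had a lowest pileup of 11 in each, a 5th percentile of 16 and 17, and a first quartile of 31 and 43. Scaled this way, 139 of the 275 regions reached the 5th percentile in both lists, and 10 reached the first quartile. The 10 were Ifit3, Mapk12, Oas3, Parp10, Ncf1, Arrdc3, Cd52, Zswim4, Best1 and Ftl1. The part of depth in these 10 calls was not tested. Scaling by depth does not replace the local background that the caller uses, which can be high beside other strong peaks.

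Interferon-induced antiviral genes held the 2 best-ranked regions, at Ifit3 and Gvin1. The grouping of the 275 genes by textbook function was made after the members were known, and this group held 12 of them, 5 within the 25 best-ranked regions. Its median scores were 9.33 and 14.2, and both scores reached 5 at 11 of the 12. These groups have no background count of their own, so their sizes are a description. The fixed gene lists used below do have one, but they were chosen with earlier results of these data known and give no independent support.

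Ifit3, an interferon-induced protein with tetratricopeptide repeats, had the best-ranked region (chr19:34582774-34583943, build mm10). Its peaks scored 40.9 and 63.9, with pileups of 62 and 92 and widths of 940 and 1104 bp. The mean summit lay 153 bp from the gene start, and the nearest Sphk2 KO peaks were 23370 and 23314 bp away. Both printed ISREs fell inside the region. They lie before the start used in the promoter table, which is further into the gene than the annotated end from which the summit distance was taken. Other genes of the same cluster had gene-end peaks in all 4 libraries: Ifit3b scored 95.1 and 125 for WT beside 10.5 and 19.0 for Sphk2 KO, and Ifit1 33.7 and 52.6 beside 4.11 and 5.78. Scores grow with depth and list, so these values stand side by side and are not a measured change.

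Gvin1, a very large interferon-inducible GTPase, followed with scores of 32.1 and 42.6 and had the highest fold enrichments of any WT-only gene end, 10.4 and 11.6 (chr7:106215317-106215818). The strand of this gene is not given in the tables used, and the summit lay 66 bp outside the annotated gene. Gbp4, a guanylate-binding protein of the same superfamily, scored 7.74 and 8.99 (chr5:105139024-105140138). Of the fixed list of 16 interferon-inducible GTPases, 10 gene-end regions were in both WT libraries, 2 of them WT-only (20%, beside 3.24% over all gene ends) and 8 in all 4. The shared ones included Irgm1, at 38.6 and 46.3 for WT beside 15.5 and 28.3 for Sphk2 KO.

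A pair of oligoadenylate synthetases, which make the messenger that activates RNase L, were among the regions. Oas3 scored 22.2 and 23.8 (chr5:120777011-120777902, summit 14 bp from the start), with pileups of 57 and 67. Sphk2 KO peaks lay 925 and 1054 bp from its region, the closest of any interferon gene here. Oas1a scored 6.38 and 12.3 (chr5:120906919-120907621), and its nearest Sphk2 KO peaks were 94096 and 93753 bp away. Oas2 and Oasl2 lacked a peak only in Sphk2 KO replicate 1, and Oasl1 had one in all 4 libraries. The family was therefore divided between the 3 patterns.

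Ifi208, Ifi206 and Ifi203, DNA-binding PYHIN proteins, formed the third set. Their scores were 7.1 and 15.2, 6.56 and 10.7, and 6.38 and 13.1, higher in WT replicate 2 each time. By symbol, 8 gene-end regions of PYHIN genes were called in both WT libraries and 3 of them (37.5%) were WT-only, beside 3.24% over all gene ends, in a family picked after the members were known. Ifi204, another member, was shared, with 74.3 and 76.8 for WT beside 9.62 and 23.4 for Sphk2 KO.

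Parp10, a mono-ADP-ribosyltransferase, scored 20.1 and 32.7 with pileups of 59 and 86 (chr15:76243073-76243569). The small interferon-induced protein Ifi27l2a scored 10.9 and 16.5. Both of these genes also had a second gene-end region, called in all 4 libraries. The remaining members of the group were 9930111J21Rik1 at 12.9 and 11.5 and Sp110, a nuclear body protein, at 2.33 and 3.24. Sp110 was thus the single interferon gene with both scores under 5.

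The fixed interferon response list, also chosen with earlier results of these data known, gives counts beside the background. Of its 42 genes, 33 and 34 had a gene-end peak in the WT libraries and 24 and 30 in the Sphk2 KO libraries. Among its 33 gene-end regions called in both WT libraries, 24 were in all 4 libraries, 5 lacked only Sphk2 KO replicate 1 (Ifi209, Xaf1, Rsad2, Oasl2 and Oas2) and 4 (12.1%) were WT-only (Cxcl10, Ifit3, Oas1a and Oas3). The background over all gene ends was 3.24%. Several other fixed lists had larger WT-only shares than the interferon response list. Among them were class II and costimulation (3 of 13, 23.1%) and integrins, adhesion and guidance (4 of 23, 17.4%, at Fn1, Icam1, Nrp1 and Sema6d). Of 23 regions at interferon receptors, JAK, STAT, SOCS and IRF genes, 21 were in all 4 libraries, 1 lacked only Sphk2 KO replicate 1 and 1, at Irf8, was WT-only, which is close to the shares over all gene ends (88.5% in all 4 and 3.24% WT-only). Ifnar1, a chain of the type I interferon receptor, scored 163 and 171 for WT beside 124 and 263 for Sphk2 KO.

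Chemokine and cytokine genes gave 8 regions. Cxcl10, which draws CXCR3-bearing T cells and is itself interferon-induced, scored 15.8 and 10.7 (chr5:92348430-92349115, 60 bp from the start). Ccl12, a monocyte attractant, scored 12.9 and 11 (chr11:82101243-82101937). The other 6 had lower scores in both libraries. Il6 scored 3.61 and 5.42, Il7 5.65 and 4.11, Ccl6 2.98 and 7.77, Vegfc 2.38 and 2.9, Cxcl16 1.82 and 4.87, and Bmp8a 1.82 and 3.49. At Cxcl16 and Bmp8a a Sphk2 KO replicate 2 peak began 4 and 18 bp from the region without touching it. On the fixed list of chemokines and their receptors, 3 of 15 gene-end regions in both WT libraries (20%) were WT-only. On the list of cytokines and receptors it was 1 of 34 (2.94%), near the 3.24% over all gene ends, and the difference between the lists was not tested.

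Antigen presentation and costimulation genes gave 5 regions. Cd40, the costimulatory receptor for T cell help, scored 8.69 and 8.3, and its summit lay 7 bp from the gene end (chr2:165055095-165055908). H2-Oa, a class II accessory chain, scored 5.38 and 10.3 and had Sphk2 KO peaks 873 and 858 bp away as well as a shared second gene-end region. H2-Aa, a classical class II chain, scored 3.55 and 5.79. The class I-related genes H2-Q2 and Mill2 scored 4.94 and 5.91, and 4.26 and 12.3. Of 13 gene-end regions on the class II and costimulation list, 3 were WT-only and 9 were in all 4 libraries, whereas all 18 regions of the class I processing list were in all 4 libraries. Over all gene ends 3.24% were WT-only and 88.5% in all 4 libraries, and the difference between the lists was not tested. The lists were not matched for peak strength, with which the WT-only share fell. The 3 WT-only regions of the class II list scored at most 10.3, while no class I gene had a best WT score below 12.8 (Psmb10).

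Surface receptors of leukocytes made up 13 regions, of which 4 lay at the far end of the gene. Nrp1, a co-receptor for semaphorins and VEGF, scored 26.9 and 28.4 at a site 614 bp from its far end (chr8:128506011-128506428), and its start was shared by all 4 libraries. Pira2, an activating immunoglobulin-like receptor, scored 11.2 and 20.4, and Slamf7, a receptor of lymphocytes and macrophages, 12.9 and 12.1 near its far end. Mertk, which takes up apoptotic cells, scored 7.13 and 6.82. S1pr5, a receptor for sphingosine 1-phosphate, scored 8.32 and 6.73, and Slamf8 scored 2.98 and 7.55. Weak regions near strong shared ones were also found, as at Icam1 (4.27 and 8.71, with Sphk2 KO peaks 478 and 446 bp away) and at Clec4e, the mycobacterial glycolipid sensor (3.96 and 3.56).

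A few regions had tall pileups but modest fold enrichment. Ncf1, an organiser subunit of the phagocyte NADPH oxidase, had the highest pileups of all, 123 and 126, with scores of 31.0 and 20.5 and fold enrichments of 3.73 and 2.80 (chr5:134229549-134229865, 2 bp from the start). Cd52, a GPI-anchored leukocyte peptide, had pileups of 84 and 104 with fold enrichments of 3.11 and 2.93, and scores of 16.2 and 18.3. Arrdc3, an arrestin-domain protein, had pileups of 94 and 118, fold enrichments of 2.94 and 2.91, and scores of 16.6 and 20.6. These peaks were short, from 173 to 317 bp, and Sphk2 KO peaks lay 1677 to 2038 bp from them. Scaled to the depth of the Sphk2 KO libraries, the Ncf1 pileup would be 94.3 and 101.

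The other innate signalling genes were weaker, apart from Mapk12, a MAP kinase, at 20.6 and 33.9. Its region lay 980 bp from the far end of the gene, close to the 1 kb limit. Nlrc4, an inflammasome sensor, scored 4.94 and 8.47, and Tank, an adaptor of TRAF signalling, 7.13 and 9.06. Peli3, a ubiquitin ligase of Toll-like receptor signalling, scored 5.65 and 6.82. Aoah, which inactivates bacterial lipopolysaccharide, scored 2.06 and 5.72. Of 29 gene-end regions on the fixed NF-kB and AP-1 list none was WT-only and 27 were in all 4 libraries. At the 3.24% over all gene ends, a count of 0 in so short a list does not set it apart.

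Transcription factors and cofactors gave 21 regions, 13 of them with both scores at 5 or more. Irf8, which directs monocyte and dendritic cell fate and restrains neutrophil output, scored 17.0 and 7.55 (chr8:120735991-120736381, 91 bp from the start), and its nearest Sphk2 KO peaks were 49600 and 49593 bp away. Elf3, an ETS factor, scored 10.3 and 12.3, Runx3 8.34 and 9.32, and Med9, a Mediator subunit, 7.9 and 14.9. Maml2, a Notch coactivator, scored 7.9 and 11.1, and Bach2, a repressor best known in lymphocytes, 6.67 and 5.42. Klf6 had its WT-only region at the far end, at 9.48 and 8.2, while its start was among the strongest shared regions, at 164 and 183 for WT beside 143 and 245 for Sphk2 KO. On the fixed list of myeloid factors 3 of 31 regions were WT-only (9.68%, beside 3.24% over all gene ends) and 26 were in all 4 libraries, Spi1, Cebpa and Cebpb among them.

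**Figure D3:**
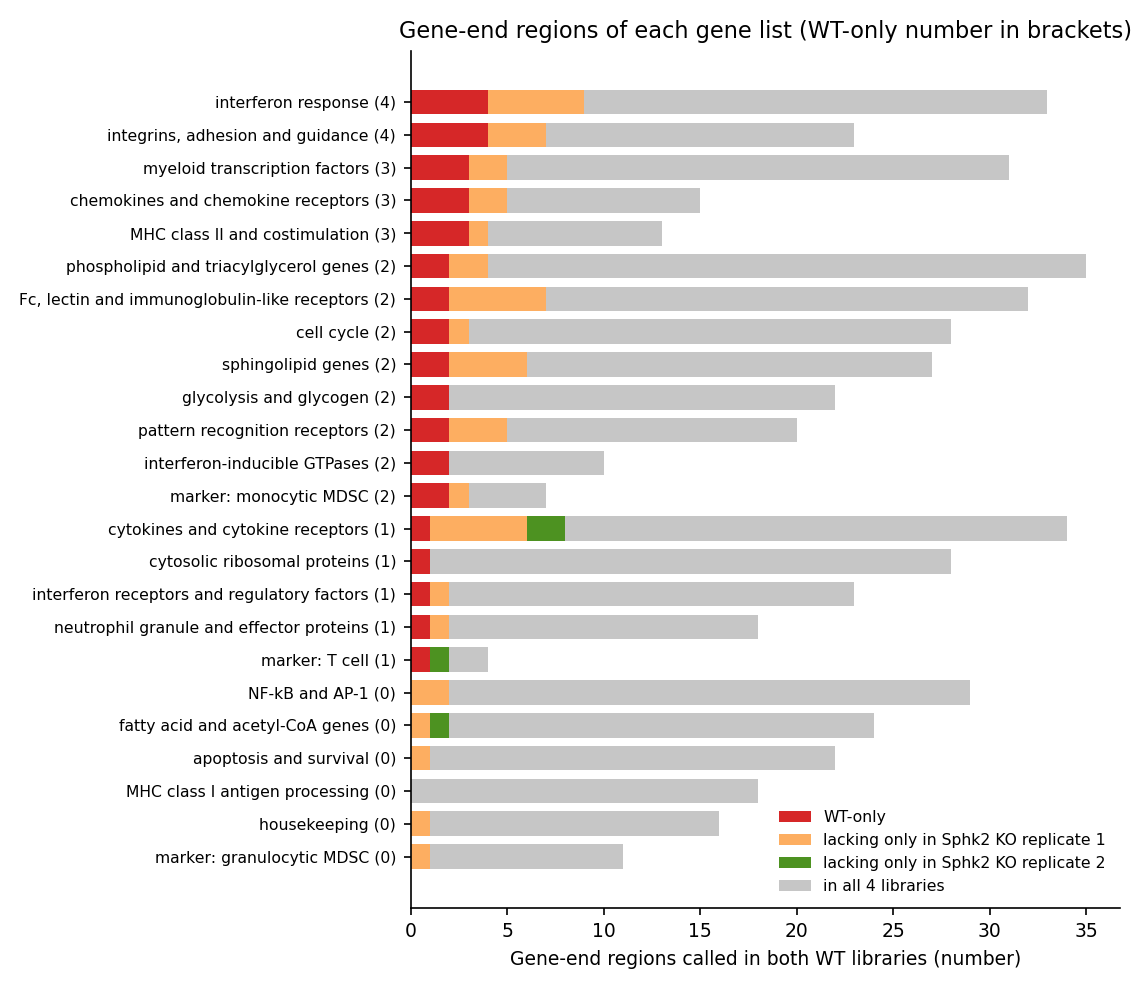
Number of gene-end regions called in both WT libraries (horizontal axis) for fixed gene lists, split by whether the region was WT-only (red, number in brackets), lacked a peak only in Sphk2 KO replicate 1 (orange) or only in replicate 2 (green), or was in all 4 libraries (grey). The interferon response list has 4 red, 5 orange and 24 grey regions, and the class I processing list has 18 grey regions alone.

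Metabolic genes outside the lipid pathways formed the largest of the named groups, with 25 regions, of which 18 had both scores at 5 or more. Nudt13, a mitochondrial nucleotide hydrolase, was among the 8 regions with both scores above 20, at 22.7 and 24.3 (chr14:20294508-20294771). Akr1b3, aldose reductase, scored 17.5 and 12.7, and Ass1, which makes argininosuccinate on the route to arginine, 12.9 and 9.75. Slc13a3, a dicarboxylate carrier, scored 10.1 and 11.3 at its far end, Aldoc, a glycolytic aldolase, 9.51 and 13, and Suclg2, a succinyl-CoA ligase subunit, 8.69 and 11.3. Ftl1, ferritin light chain, had a weak far-end region at 5.59 and 5.62 that also lay within 1 kb of Gys1.

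Lipid and steroid genes added 19 regions, of which 6 had both scores at 5 or more. Hsd3b7, a bile acid synthesis enzyme, scored 23.9 and 15.5 (chr7:127800459-127800981), and its summit also lay within 1 kb of an end of Setd1a. Hpgds, a prostaglandin D synthase of haematopoietic cells, scored 13.8 and 8.67. Cyp11a1, which starts steroid hormone synthesis, scored 5.65 and 6.11. Cers4, a ceramide synthase in the pathway that also feeds Sphk2, scored 7.9 and 4.11. Agpat3 and Pld4, which act on phospholipids, scored 2.98 and 4.11, and 2.98 and 5.58.

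These lipid genes sat within lists that were mostly shared. On the fixed sphingolipid list 2 of 27 gene-end regions were WT-only (Cers4 and S1pr5), 4 lacked only Sphk2 KO replicate 1 and 21 were in all 4 libraries. The phospholipid list had 2 of 35 and the fatty acid list 0 of 24. Over all gene ends 3.24% were WT-only, and counts this small do not set a list apart from that.

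Genes of cell division and DNA repair gave 7 regions. Rad54l, a recombination repair helicase, scored 17.5 and 13.1, Mgmt, which repairs alkylated DNA, 9.51 and 9.84, and Ccnd3, a cyclin, 7.7 and 8.57. Cdc25a and Siva1 had theirs at the far end, with a shared start. Tert, the catalytic subunit of telomerase, and Prim1, a primase subunit, were among the weakest, at 2.38 and 2.34, and 1.82 and 2.34. On the fixed cell cycle list, 2 of 28 regions were WT-only (7.14%, beside 3.24% over all gene ends), at Ccnd3 and at E2f2 (2.27 and 2.76).

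Genes of cilia and flagella, the microtubule-based appendages of motile and sensory cells, gave 10 regions. Gas8, a dynein regulatory subunit, scored 14.0 and 15.7, Cfap410 14.9 and 9.84 at its far end, Cfap299 11.2 and 9.84, and Ift81, an intraflagellar transport protein, 4.94 and 14.9. By symbol, 27 gene-end regions of Cfap, Dnah, Ift and Ttc8 genes were called in both WT libraries and 5 (18.5%) were WT-only, beside 3.24% over all gene ends. The corresponding share was 3 of 19 (15.8%) for MHC (H2-) genes and 3 of 30 (10.0%) for Arhgef and Arhgap genes. It was 14 of 249 (5.62%) for Zfp and Zscan genes and 3 of 163 (1.84%) for Slc genes. For Tmem genes it was 3 of 138 (2.17%) and for Rpl and Rps genes 1 of 79 (1.27%). These families were looked at after the members were known.

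Zinc finger genes had mostly weak regions, with median scores of 4.6 and 5.09. Zfp267 led them at 16.6 and 9.84, followed by Zfp707 at 7.13 and 9.84. Zfp53, at 3.56 and 1.76, had the lowest rank of all 275. Matrix and guidance genes were few but included strong ones: Bcan, a brain proteoglycan, at 14.3 and 16.0, Cdon, a Hedgehog co-receptor, at 12.0 and 23.3, Ece1, the endothelin-converting enzyme, at 11.6 and 16.1, and Fn1, fibronectin, at 11.2 and 10.6. Sema6d, a semaphorin, scored 2.42 and 2.34.

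Small GTPase regulators and cytoskeletal genes gave 19 regions, led by Tbc1d30 at 9.54 and 21.7 and Dock6 at 8.34 and 20.9. Vesicle traffic genes gave 8, among them Stx4a, a syntaxin, at 7.9 and 14.9 and Vps41, a lysosomal fusion protein, at 10.3 and 9.06. Chromatin and histone genes gave 6, with Bahcc1 at 17.5 and 11.1. Channel and neuronal genes gave 7, with Kcnk7 at 7.9 and 6.69. A further 82 regions fitted none of the 16 named groups. The best-ranked of these after Arrdc3 were 2610318N02Rik at 12.9 and 13.8, Fam189b at 12.7 and 12.8, Myzap at 11.2 and 12.5 and Ccdc112 at 17.5 and 12.3.

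Cell type markers were examined in the same way, because an uneven mix of cells would reach these calls. Of 12 monocytic MDSC markers, 7 and 8 had a gene-end peak in the WT libraries and 4 and 5 in the Sphk2 KO libraries, and 2 of the 7 regions in both WT libraries were WT-only (Fn1 and Irf8), where 3.24% of all gene ends were. Another 4 of the 7, at Cd14, Klf4, Csf1r and Cx3cr1, were in all 4 libraries, so the list did not go one way. Ly6c2 itself had peaks of 10.1 and 12.4 in WT and 6.96 in Sphk2 KO replicate 2, and Ccr2 and Vcan had none in any library. Of 15 granulocytic MDSC markers, 10 and 10 had one in the WT libraries and 9 and 11 in the Sphk2 KO libraries, with no WT-only region and 1 in Sphk2 KO alone, at Ltf (2.43 and 7.8). Of 11 macrophage markers found in the gene table, 5 and 5 had one for WT beside 3 and 3 for Sphk2 KO, with 1 WT-only region, at Mertk. Cd68, Adgre1 and Csf1r had a region in all 4 libraries. Of 11 dendritic cell markers the numbers were 7 and 7 for WT beside 3 and 7 for Sphk2 KO. Of 20 T cell markers they were 4 and 8 for WT beside 3 and 4 for Sphk2 KO, with 1 WT-only region, at Tox (5.81 and 7.4). No B cell or erythroid marker had a gene-end peak in any library. The part of the cell mix in the WT-only calls was not tested.

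Where the strand was known, 183 WT-only regions lay at the gene start and 30 at the far end, and for 62 the strand was not given. Starts thus made up 85.9% of the known ones, compared with 96.3% among gene-end regions in all 4 libraries. The mean summit lay a median of 138 bp from the gene end, against 78 bp for shared regions, and 182 of the 275 (66.2%) were within 250 bp, against 5904 of 7517 (78.5%). Just inside the 1 kb limit were Msantd3 at 918 bp, Cdc25a at 928 bp, Rpl3 at 960 bp and Mapk12 at 980 bp. Just outside were Bbs12 at 1027 bp and Nol12, Qk and Stard3nl at 1042 bp.

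For most of the 275 genes the WT-only region was the single called gene end. No other gene-end region was called for 222, and for 232 none was called in either Sphk2 KO library. The matching numbers for genes with a shared gene end were not counted, so these do not set the WT-only regions apart. At 28 genes another gene-end region was in all 4 libraries, including Nrp1, Lpxn, Taldo1, Cfap410, Klf6 and Siva1, where the WT-only region was at the far end. The nearest Sphk2 KO peak lay a median of 22940 bp away, within 500 bp at 14 regions and within 2 kb at 36. Another WT-only region was found within 20 kb of 29 regions, among them Ifit3, Parp10, Arrdc3, Ece1, Elf3, Slamf7, Cxcl10, Ifi208 and Ifi203. The matching number for shared gene ends was not counted here either.

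The promoters under the WT-only regions differed in base composition from those of shared gene ends. The CpG observed/expected ratio, near 1 in CpG islands and low where CpGs have been lost, had a median of 0.589 over the 151 promoters, against 0.818 over 5838 promoters with a region in all 4 libraries. It was below 0.4 in 48 promoters (31.8%), compared with 366 (6.27%) of the shared ones. Over all 20085 promoters of the table the median was 0.586 and 38.4% were below 0.4. Regions lacking only Sphk2 KO replicate 1 lay between, with a median of 0.723. Median GC content was 58.3% against 62.0% for shared promoters. Ifit3 (0.06), Oas3 (0.14), Ncf1 (0.14) and Il6 (0.21) were at the low end and Irf8 (1.03) at the high end.

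**Figure D4:**
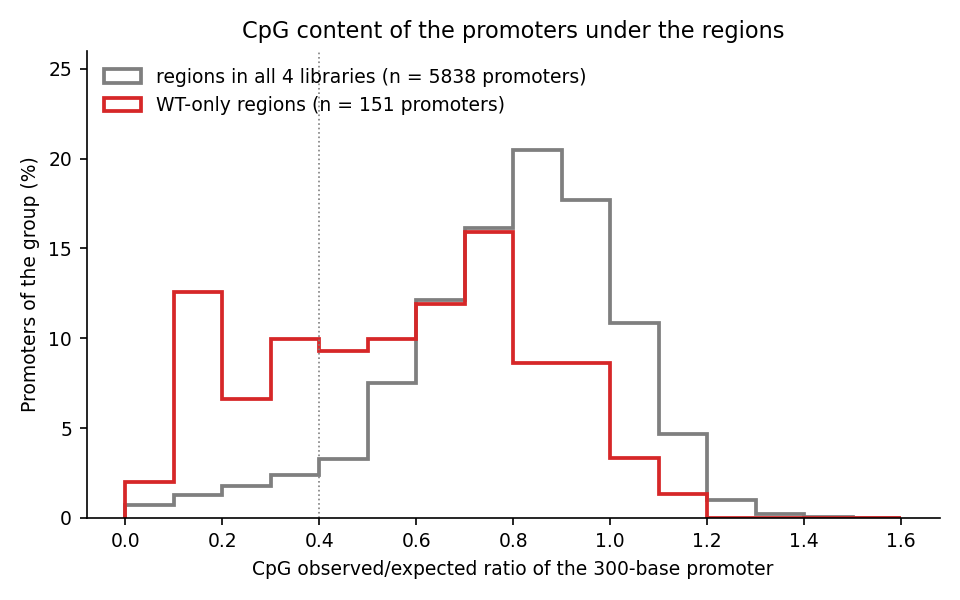
Percentage of promoters (vertical axis) by CpG observed/expected ratio of the 300-base promoter in steps of 0.1 (horizontal axis), for 151 promoters under WT-only regions (red) and 5838 under regions in all 4 libraries (grey); the dotted line marks 0.4. The red line has a second mass left of 0.4, where 31.8% of its promoters lie against 6.27% of the grey.

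Of the motifs searched, the ISRE in its full form (GAAANNGAAA) had the largest ratio between promoters under WT-only and under shared regions. It stood in 15 of 151 promoters under WT-only regions (9.93%, 95% Wilson interval 6.11% to 15.7%) and in 176 of 5838 under shared regions (3.01%, 2.61% to 3.49%), with 3.38% over all promoters. Regions lacking only Sphk2 KO replicate 1 had it in 21 of 412 (5.10%). Within promoters of low CpG ratio (below 0.4) the values were 10 of 48 (20.8%, 11.7% to 34.3%) under WT-only regions, 34 of 366 (9.29%, 6.72% to 12.7%) under shared ones and 4.85% over all. Within the interferon-induced group all 7 promoters that overlapped a region carried it, and the promoters listed for Sp110 did not overlap its region. Outside that group 8 of 144 promoters (5.56%) carried it, namely those of Ncf1, Cxcl10, Suclg2, Vps41, Itpka, Eps8l1, Slamf8 and Aoah. Promoters are not replicates of a genotype, and the intervals cover counting error alone. A match is a run of letters, not a bound site.

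The other motifs had smaller ratios, and their shares were not split by CpG content. The GC box (GGGCGG) stood in 58.3% of promoters under WT-only regions, 71.5% of shared ones and 47.0% of all. The AP-1 site (TGANTCA) was in 8.61%, 4.23% and 7.06%, and the C/EBP site (TTGCNNAA) in 11.3%, 7.43% and 10.3%, so that for both the WT-only value was close to that of all promoters. The PU.1 site (GAGGAAG), named for the master myeloid factor, was in 12.6%, 13.4% and 13.2%, and the GAS element in 8.61%, 6.82% and 7.78%. NF-kB sites (GGGANNNNCC) were in 31.1%, 26.7% and 23.4%. Also searched were the TATA box (TATAAA), the CCAAT box (CCAAT), the cAMP response element (TGACGTCA) and the E-box (CACGTG). So were a CTCF core (AGGGGGC) and a composite of ETS and IRF sites (GGAANNGAAA). The shares of these motifs are plotted with the others. A shorter form of the ISRE (GAAANNGAA) was searched as well. This form stood in 12.6% of promoters under WT-only regions (Wilson interval 8.21% to 18.8%), 6.94% of shared ones and 8.09% of all. Its ratio between WT-only and shared promoters was smaller than that of the full ISRE. The size of the ISRE difference thus depended on the letters chosen. All were searched on both strands, and matches of different motifs may overlap.

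**Figure D5:**
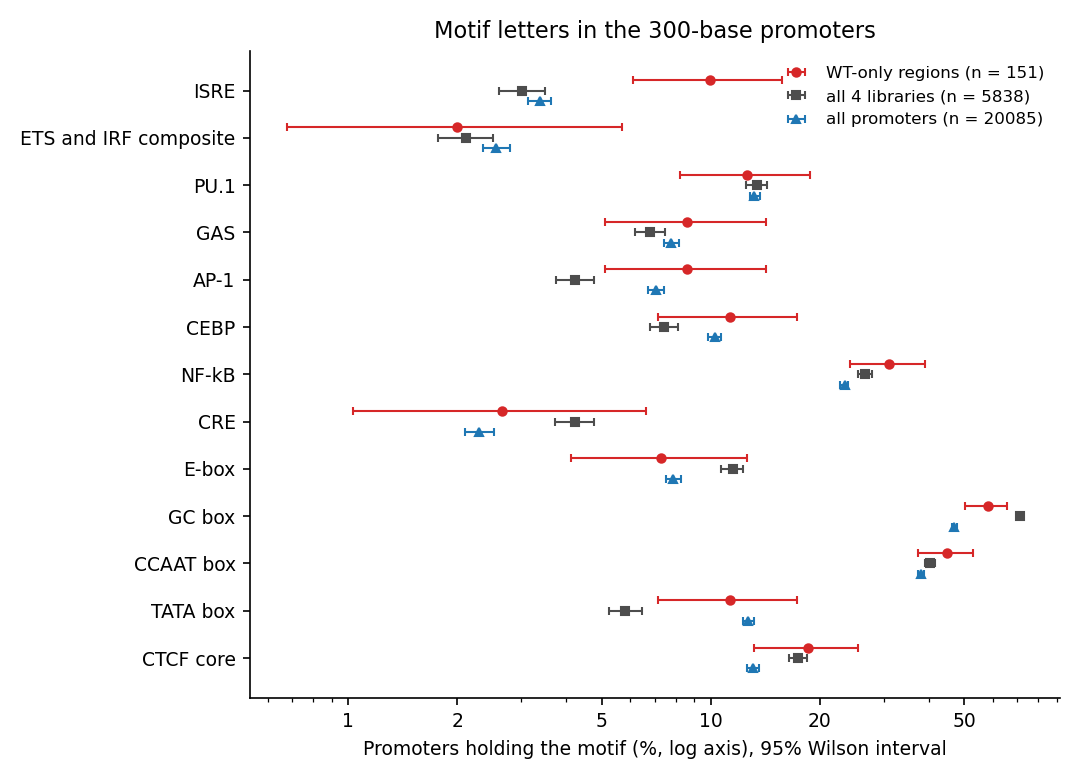
Percentage of 300-base promoters holding each motif (horizontal, log axis) with 95% Wilson intervals, for promoters under WT-only regions (red circles, n = 151), under regions in all 4 libraries (dark squares, n = 5838) and for all promoters (blue triangles, n = 20085). For the ISRE the red interval, from 6.11% to 15.7%, lies above both other points.

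At the 21 gene ends with the reverse pattern, the Trim family of chromosome 7, whose proteins include antiviral restriction factors, was present with 3 genes. Trim12a had the highest scores of all, 80.8 and 140 in the Sphk2 KO libraries, Trim30d 25.2 and 39.3 and Trim5 6.62 and 17.8. These genes and Sphk2 lie on the same chromosome, but far apart. The Trim regions lie between chr7:104287627 and chr7:104508802, and the region over the Sphk2 start at chr7:45717303-45718352. The promoters of these Trim genes were not analysed here.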

How the data were processed

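ATAC-seq peak lists of 4 libraries, 2 WT and 2 Sphk2 KO, were used as deposited. Reads were trimmed with cutadapt, aligned with BWA to mm10 and peaks called with MACS2, per the submitters' processing notes. The authors called peaks in each library on its own with MACS2 2.1.1.20160309, from paired-end fragments with no control and a q cutoff of 0.05, per the file headers. For each peak the deposited lists give the pileup (a fragment coverage signal), the −log10 q, and the fold enrichment, a ratio over the local background. The peak calls chose the regions, so no test of the genotypes was made on them and no p-values were computed.

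Retained fragments ranged from 25877428 to 34443062 per library, per the file headers. Peaks on autosomes were merged at 1 bp overlap (Python 3.11.15, pandas 2.3.3). Gene ends came from the RefSeq table of GRCm38.p6 (20665 autosomal protein-coding genes, strand known for 16457), and each region was named by the nearest gene end. Ranks were taken within each WT list. The genes named are the 25 best-ranked regions (the worse of the 2 WT ranks), members of the fixed lists, the best of each functional group, and those nearest the limits. The members and the 32 gene lists (820 entries) were chosen with earlier results of these data known. Merging and the selection rule were tested on simulated data. Alternatives were another score threshold, equal list lengths, summit windows, other distances, gene starts alone, sex chromosomes and leaving out each library. Promoters on chromosome 18 and sequences of whole regions were not used here, and 1 region's result is not reported here.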

Additional observations from a re-analysis of the deposited data

How the results depend on the processing

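The number of WT-only gene ends was 275, or 3.24% of those in both WT libraries. It was 136 (1.69%) when WT peaks had to reach a −log10 q of 5, 152 (1.94%) with the same number of top peaks taken from every list, and 183 (2.74%) at gene starts alone. With scores of at least 10 or 20 in both WT libraries, thresholds chosen after seeing the data, it was 32 (0.435%) and 8 (0.129%). The share also moved to 2.79% with a threshold of 5 in all 4 libraries, 4.31% with 250 bp summit windows and 3.87% within 2 kb of a gene end, where the numbers were 224, 353 and 373. Leaving out 1 library gave 308 to 952 regions and 3.62% to 11.2%; the number was 686 without WT replicate 1, 601 without WT replicate 2 and 952 without Sphk2 KO replicate 2. With equal list lengths 85 of the 275 regions remained, with all of the 25 best-ranked and 11 of the 12 interferon genes. The 25 best-ranked were kept under every alternative except the 500 bp limit (21), gene starts alone (15) and the score of 20 (8). The ISRE share was 9.93% in the main setting and 16.5% with equal list lengths. At a score of 10 it was 27.8% (5 of 18 promoters) and at 20 it was 75% (3 of 4). Leaving out 1 library lowered the ISRE share. It was 6.43% without WT replicate 1, 7.95% without WT replicate 2, 9.58% without Sphk2 KO replicate 1 and 6.43% without Sphk2 KO replicate 2. The cause of these shifts was not tested, other than that stricter limits leave fewer regions by construction. Score limits and equal list lengths drop the lowest-scoring WT peaks first. They therefore favour the best-ranked regions by construction, and keeping these is no sign of stability. The ISRE shares at scores of 10 and 20 come from few promoters left by the same limits. Leaving out a library, a wider distance and adding the sex chromosomes loosen the rule. Regions kept under those settings are therefore no sign of stability either. No paired analysis was possible because the result comes from no test.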
